A study of Caenorhabditis elegans with 8 samples.

Results

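The small subunit of the cytosolic ribosome is built from a ribosomal RNA and a set of proteins encoded in Caenorhabditis elegans by the genes rps-0 to rps-30. These 31 genes were taken by their sequence names from a table of 20871 genes, and all 31 were found and carried an rps symbol in the Ensembl annotation of WBcel235. The symbols fau-1, rpsa-1, rps-3A and rps-15A in RefSeq denote rps-30, rps-0, rps-1 and rps-22. RNA sequencing covered 8 samples of whole adult worms collected at day 3 of adulthood. From hatching, 4 samples were fed HT115 bacteria with the empty vector L4440 (EV), and 4 were fed HT115 bacteria making double-stranded RNA against mtch-1, written mtch-1(RNAi). The labels name no strain or allele, and give about 200 adults for a collection, so each sample is a pool of whole animals. mtch-1 encodes a mitochondrial carrier homolog, and the study asked how its knockdown alters gene expression in adults.

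The small subunit binds mRNA and initiator tRNA, scans to the start codon and monitors base pairing between codon and anticodon, whereas peptide bonds form on the large subunit. Its proteins are needed in equal numbers, and those made in excess are generally degraded. In adult hermaphrodites much of the demand for new ribosomes comes from the germ line, which loads them into oocytes.

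Total gene counts ran from 18710833 to 23608608 per sample. The targeted gene, mtch-1, was lower in all 4 mtch-1(RNAi) samples, with 34.2 to 57.9 CPM against 264 to 291 CPM in EV (log2 fold change -2.56, SE 0.12, edgeR adjusted p = 8.62e-08). CPM is the count per 1000000 counts of a library whose size was corrected with TMM, a scaling that assumes that most genes do not change. In whole animals, fewer cells of a type and less RNA per cell cannot be told apart. The markers of oocyte and eggshell (6 genes) summed to 7673 to 8148 CPM in EV and 6425 to 6703 CPM in mtch-1(RNAi), without overlap, and 5 of the 6 fell. Summed markers of germ line (4545 to 5110 against 4335 to 4549 CPM), early embryo, intestine, body wall muscle, hypodermis and neurons overlapped between the groups, and no marker in these lists was at 0 in all samples. Single markers did change in some of these lists. In the germ line list of 8 genes 2 rose and 2 fell, in the intestine list of 6 genes 1 fell, and 1 gene each rose among hypodermis and neurons. No early embryo or body wall muscle marker passed the test. Of the sperm list only 1 gene was matched, at 0.606 CPM or less. The part of tissue content in the results below was not tested.

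The 31 genes lie on 5 chromosomes, with 8 on chromosome I, 1 on II, 9 on III, 10 on IV and 3 on V. They are short, with coding lengths of 168 to 828 bases without the stop codon and 2 to 5 exons, and 18 of them have 3 exons. rps-14 (F37C12.9, chromosome III, 7178991 to 7179588, minus strand) and rps-21 (F37C12.11, chromosome III, 7189178 to 7189631, minus strand) are the closest pair, 9589 bases apart on 1 strand. The next closest pair, rps-3 and rps-13, is 166131 bases apart. Introns of 5 of the genes hold 7 annotated small nucleolar RNA genes, which guide rRNA modification, and 2 each sit in rps-12 and rps-29. Exons of rps-4, rps-16, rps-18 and rps-20 share 12 to 110 bases with another annotated gene. The strand setting of the counting is not given in the sources used here, so reads from such stretches cannot be assigned with certainty. For rps-16 the shared stretch is 12 bases with a gene on the opposite strand.

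The small subunit mRNAs were abundant and took a larger share of the counts after knockdown. In EV the 31 genes together took 3.502%, 3.69%, 3.40% and 3.48% of all counts in replicates 1 to 4. In mtch-1(RNAi) they took 3.78%, 4.00%, 3.81% and 3.91%, so the groups did not overlap, and the mean share was 1.10 times that in EV (3.52% ± 0.124 and 3.88% ± 0.101, SD, n = 4). On TMM library sizes the sum was 35921, 38070, 34018 and 36375 CPM in EV and 36154, 39471, 37159 and 38481 CPM in mtch-1(RNAi), and here the groups overlapped, though the mtch-1(RNAi) sample was the higher in all 4 same-numbered pairs. TMM factors were 0.958 to 0.998 in EV and 1.01 to 1.05 in mtch-1(RNAi), which is the difference between the 2 scales. Per total count the median log2 fold change over all genes tested was itself above 0, at 0.09. No p-value is given for either sum, since the members were chosen with earlier results known. The large subunit genes took 4.47% to 4.96% of counts in EV and 4.98% to 5.25% in mtch-1(RNAi). Small subunit counts were 0.745 to 0.759 times the large subunit counts in EV and 0.751 to 0.763 times in mtch-1(RNAi). These ranges overlap, and the mtch-1(RNAi) value was the higher in all 4 pairs.

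**Figure D1:**
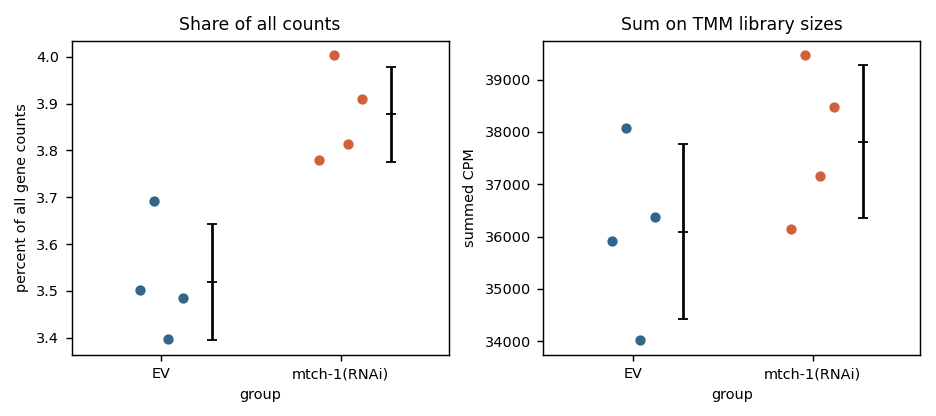
Summed counts of the 31 small subunit genes in each sample, as a percent of all gene counts (left panel) and as CPM on TMM library sizes (right panel), for EV (blue) and mtch-1(RNAi) (orange); neither axis starts at 0. Points are samples, and the bars give mean and SD (n = 4 per group); the groups are apart on the left, at most 3.69% against at least 3.78%, and overlap on the right.

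Levels were compared between genes only per length, as CPM per kilobase of the gene length in the deposited table. In EV the median of the 31 genes was 1937 CPM per kb, 29 lay within 2-fold of it and 22 within 1.5-fold. The highest level was 5.40 times the lowest, and the coefficient of variation over the genes was 38.0%. rps-25, whose protein sits in the subunit's head and is needed in yeast and mammals by certain viral internal entry sites, was the highest at 3968, 4053, 3545 and 3862 CPM per kb in EV replicates 1 to 4. rps-23, for a protein of the decoding centre, followed at 3583, 3880, 3523 and 3687 CPM per kb. These 2 genes overlapped each other in level and stood above every other small subunit gene in all 4 EV samples.

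Below them the levels ran down in small steps. rps-12, for a protein of the beak on the head, followed at 2698, 2826, 2590 and 2694 CPM per kb, within the range of rps-28 (2440 to 2984). At the other end stood rps-0, rps-29 and rps-22. rps-0, which encodes the homolog of the mammalian laminin receptor precursor, lay at 1043, 1054, 986 and 1052 CPM per kb. rps-29, for a small zinc-binding protein of the head, lay at 953, 1053, 789 and 928 CPM per kb and overlapped rps-0. rps-22, counterpart of the bacterial protein S8 and of mammalian RPS15A, was lowest at 672, 796, 635 and 752 CPM per kb, with 796 in replicate 2 above the lowest rps-29 value.

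Much the same order was seen after knockdown. Of the 31 genes, 9 had the same rank in both groups and the largest shift was 4 places. Across the genes the log2 levels per kb of the groups correlated with r = 0.986 (n = 31 genes sharing their lengths, a description only). In mtch-1(RNAi), rps-25 had 3734, 4223, 3769 and 3909.8 CPM per kb and rps-23 had 3638, 4133, 3826 and 4069.8, so that rps-23 had the higher mean there. rps-22 was again lowest at 649.6, 747, 624 and 699.7 CPM per kb. rps-29 stood at 1058, 1074, 899.7 and 863 CPM per kb, and rps-0 at 1119, 1076, 1108 and 1059.

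**Figure D2:**
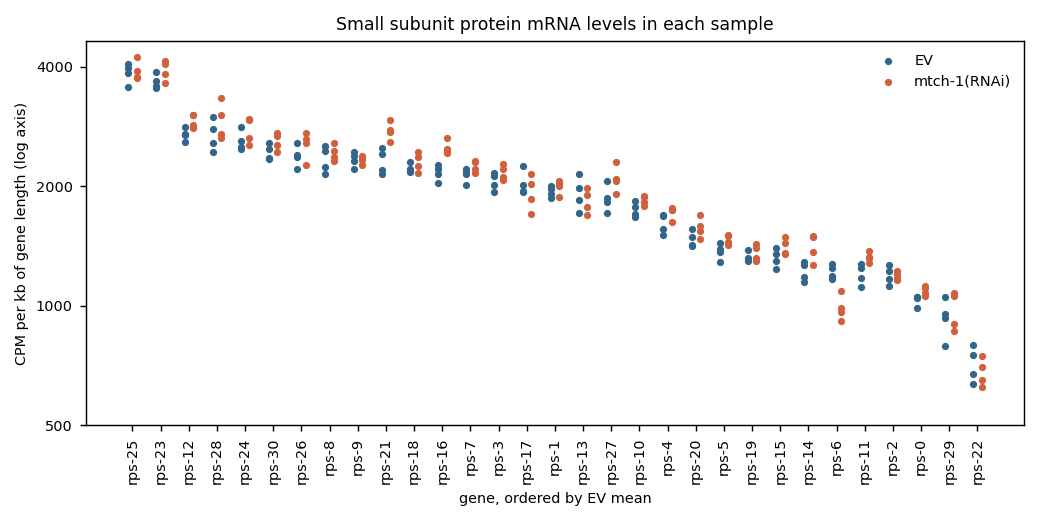
Level of each small subunit gene in each sample, in CPM per kb of gene length on a log axis, ordered by the EV mean; blue points are the 4 EV samples and orange points the 4 mtch-1(RNAi) samples. rps-25 and rps-23 stand highest and rps-22 lowest in both groups, and the orange points of rps-6 lie below its blue points.

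Part of that order rests on the gene models. The length in the deposited table was 0.923 to 1.72 times the exon length in Ensembl release 115 (median 1.09), and over 1.3 times in 5 genes. For rps-15 it was 847 bases against 492, so its EV level was 1319.6 CPM per kb with the table length and 2272 with the reference length, and its rank 24 and 12. rps-14 went from 1222 to 1983 CPM per kb (rank 25 to 17), and rps-11 from 1201 to 1786 (rank 27 to 24). The coding length mattered more for rps-20, which had 1472 CPM per kb with the table length, 2129 with the exon length and 3560 with the coding length. Its ranks were 21, 14 and 4. In EV rps-25 and rps-23 took ranks 1 and 2 with every length used. rps-22 was last with the exon length but at rank 28 with the coding length, where rps-0 was last and the highest level was 3.97 times the lowest. In the main test a change between groups does not depend on these lengths, because the length of a gene is the same in all samples. The alternative that removes a trend of expression with gene length does use the table lengths.

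After mtch-1 knockdown 3 of the 31 genes rose and 1 fell, against 10.0% and 13.0% of all 13252 genes tested (1325 and 1728 genes). All 31 passed the count filter, with at least 4681 counts in any sample. The median log2 fold change was 0.08 for the 31 genes and 0.01 for all genes tested. By fitted value 25 of the 31 were above 0 and 6 below, with a range from -0.30 to 0.25, and 25 changed by less than 10%. The share of genes that rose is near the background. Without scaling by TMM, that is per total count, 16 of the 31 genes rose and 1 fell, against 15.4% and 7.57% of all genes, so the choice of scale decides whether most small subunit mRNAs pass. With the replicate number as a block, 5 rose and 1 fell, together 6 of 31 against 32.0% of all genes in either direction, and the additional genes were rps-11 and rps-27. With a filter of a mean of 5 CPM, 7 rose and 1 fell, against 15.9% and 16.1%. Without replicate 1 of both groups, 1 rose and 1 fell, against 6.60% and 8.79%.

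**Figure D3:**
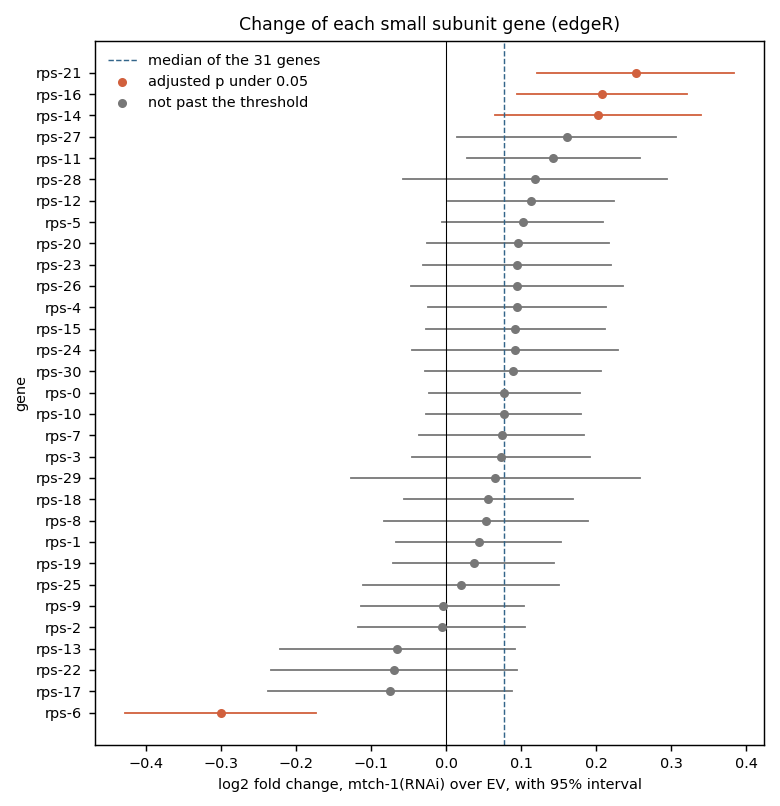
Log2 fold change of each small subunit gene, mtch-1(RNAi) over EV, as fitted by edgeR (points) with its 95% interval (lines), n = 4 per group. Orange marks the 4 genes with an adjusted p under 0.05, the dashed line is the median of the 31 genes at 0.08, and rps-6 lies alone at the low end at -0.30.

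rps-6 was the only small subunit gene that fell, and it had the lowest adjusted p of the 31. Its protein is the classical substrate of S6 kinase, the kinase that acts downstream of the growth regulator TOR. rps-6 (Y71A12B.1, chromosome I, 13952161 to 13953203, plus strand) shared no exon bases with another annotated gene. Its level was 980.3, 1051, 961 and 1028 CPM in EV replicates 1 to 4 and 755, 815, 899 and 795 CPM in mtch-1(RNAi) replicates 1 to 4. The groups did not overlap, and mtch-1(RNAi) replicate 3 was nearest to EV. The mean went from 1005 ± 41.6 to 816 ± 60.7 CPM (SD, n = 4), with a log2 fold change of -0.30 (SE 0.06, 95% interval -0.43 to -0.17, edgeR adjusted p = 0.00303), a change of -18.8%. Within same-numbered samples the log2 ratio was -0.38, -0.37, -0.10 and -0.37.

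The fall of rps-6 was also a change in proportion to the other small subunit mRNAs. It made up 2.73%, 2.76%, 2.83% and 2.83% of small subunit counts in EV and 2.09%, 2.07%, 2.42% and 2.07% in mtch-1(RNAi). Put differently, its CPM, not divided by length, was 0.868 to 0.895 times the median of the other small subunit genes in EV. In mtch-1(RNAi) it was 0.631 to 0.753 times that median. These ratios serve to compare the groups, not the level of rps-6 with that of other genes. Per length its mean was 1218 CPM per kb in EV, where the median of the small subunit genes was 1937. In mtch-1(RNAi) these values were 989 and 1995 CPM per kb. When the test was run with the summed small subunit counts as library size, so that change is read against the set itself, rps-6 gave -0.37 (SE 0.06, edgeR adjusted p = 0.000797). The call held in all 19 alternatives that keep the change on an outside scale, from -0.35 to -0.23 with adjusted p up to 0.0177. In the authors' deposited table rps-6 had a log2 fold change of -0.31 and an adjusted p of 9.8e-06. Its kinase gene rsks-1 did not pass the test (192 ± 14.05 and 184 ± 4.71 CPM, -0.06, adjusted p = 0.443), whereas the TOR kinase gene let-363 was called lower, at 217 ± 12.7 CPM in EV and 176 ± 7.13 CPM in mtch-1(RNAi) (-0.30, SE 0.05, adjusted p = 0.00115).

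The 3 genes that rose were rps-21, rps-16 and rps-14. rps-21 encodes a small eukaryotic protein that in yeast binds the rps-0 counterpart. Its level was 875, 841, 753 and 769 CPM in EV and 902, 1027, 972 and 956 CPM in mtch-1(RNAi). The groups did not overlap, though EV replicate 1 and mtch-1(RNAi) replicate 1 were close (log2 ratio 0.04). The mean went from 809 ± 58.2 to 964 ± 51.2 CPM (0.25, SE 0.06, adjusted p = 0.00975). It passed in all 19 alternatives. Relative to the small subunit total it also rose (0.18 on the log2 scale, SE 0.06, adjusted p = 0.0291), from 2.24% ± 0.136 to 2.55% ± 0.0689 of those counts.

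rps-16 encodes the counterpart of the bacterial protein S9, whose tail reaches the tRNA in the P site. It is on chromosome V at 15000018 to 15000541, minus strand, 110 bases downstream of fib-1, the gene of the nucleolar rRNA methyltransferase fibrillarin. The level of rps-16 was 1143, 1208, 1088 and 1182 CPM in EV and 1304, 1415, 1292 and 1325 CPM in mtch-1(RNAi), with no overlap. The change was steady across same-numbered samples (log2 ratios 0.19, 0.23, 0.25 and 0.17), with a fitted value of 0.21 (SE 0.05, adjusted p = 0.013). Relative to the small subunit total it was 0.14 (SE 0.05, adjusted p = 0.0466). Without replicate 1 of both groups, chosen after seeing the data, the log2 fold change was 0.21 as in the main test, with fewer samples and an adjusted p of 0.0516, which ended the call. The neighbour fib-1, named after its value was seen, rose from 589 ± 18.6 to 657 ± 11.6 CPM (0.16, SE 0.04, adjusted p = 0.0187).

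rps-14, for a protein of the platform near the mRNA exit, had the weakest of these calls. Its level was 1060.2, 1042, 947 and 973 CPM in EV and 1123, 1229, 1044 and 1229 CPM in mtch-1(RNAi), so mtch-1(RNAi) replicate 3 lay within the EV range. The fitted change was 0.20 (SE 0.06, adjusted p = 0.037). Leaving out EV replicate 3 ended the call (0.17, adjusted p = 0.0927), as did leaving out EV replicate 4 (0.19, adjusted p = 0.0971). The same held for mtch-1(RNAi) replicate 2 (0.17, adjusted p = 0.107) and replicate 4 (0.18, adjusted p = 0.0946). Without replicate 1 of both groups the change was larger, at 0.24, with an adjusted p of 0.0518. With a trend of expression with gene length removed the change was 0.17 (adjusted p = 0.0599), and relative to the small subunit total it was 0.13 (adjusted p = 0.109).

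**Figure D4:**
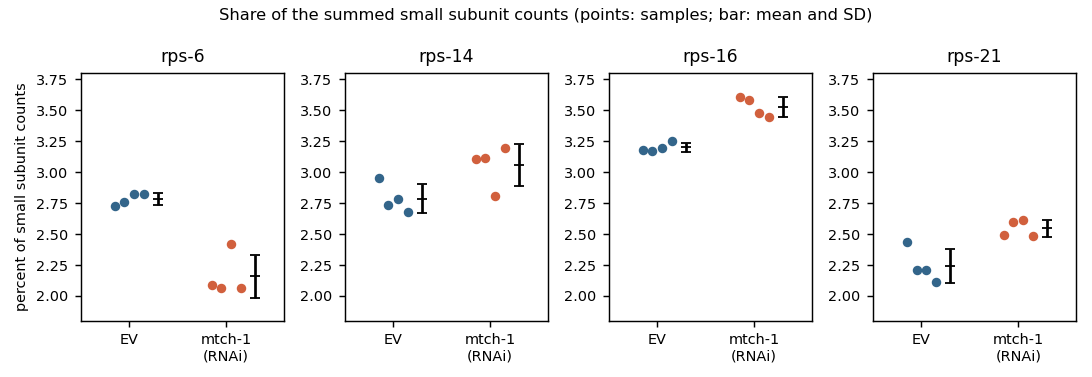
Share of the 4 called genes in the summed small subunit counts, in percent, by sample (points: EV blue, mtch-1(RNAi) orange; bars: mean and SD, n = 4), on an axis from 1.8% to 3.8%. rps-6 goes from 2.79% to 2.16% without overlap, rps-16 and rps-21 go up without overlap, and the groups overlap for rps-14.

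For the other 27 genes no change passed the test, and the 95% intervals of their log2 fold changes together spanned -0.24 to 0.31. Next to the threshold were rps-11, for a protein at the base of the body, and rps-27, for a zinc-binding protein. rps-11 stood at 1004, 1025, 897 and 945 CPM in EV and 1034, 1109, 1061 and 1069 CPM in mtch-1(RNAi), without overlap (0.14, SE 0.05, adjusted p = 0.0711). It passed with the replicate block (adjusted p = 0.0258), in DESeq2 (0.0424), in limma-voom (0.0463), with upper-quartile scaling (0.0485) and without EV replicate 2 (0.0394). rps-27 had means of 693 ± 53.7 and 774 ± 60.1 CPM with overlapping groups (0.16, SE 0.07, adjusted p = 0.108). The block gave it an adjusted p of 0.0164, and leaving out EV replicate 2 gave 0.0379. Both passed per total count and with the stricter filter of a mean of 5 CPM.

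The 5 genes below 0 that did not pass were rps-17, rps-22, rps-13, rps-2 and rps-9. rps-17, for a head protein, had 910.0, 1055, 906 and 944 CPM in EV and 796, 948, 870.3 and 1008.1 CPM in mtch-1(RNAi) (-0.07, adjusted p = 0.512). rps-22 had 528, 626, 499 and 591 CPM and 511, 587, 490.5 and 550.0 CPM (-0.07, adjusted p = 0.551). rps-13, counterpart of bacterial S15, had 954, 1106, 886 and 1019 CPM and 871, 1021, 913 and 983 CPM (-0.07, adjusted p = 0.559). In these 3 genes the groups overlapped, and EV replicate 2 was the highest of the 4 EV samples in each. rps-2, for a protein at the mRNA entry channel, had 1115, 1169, 1068 and 1212 CPM and 1124, 1165, 1109.9 and 1145 CPM (-0.01, adjusted p = 0.947). rps-9, for a protein of the body next to that channel, had 1565, 1656, 1494 and 1614 CPM and 1531, 1617, 1573 and 1587 CPM (-0.0050, adjusted p = 0.958). For rps-2 and rps-9 the mtch-1(RNAi) values lay inside the EV range, with 95% intervals of the change of -0.12 to 0.10 and -0.11 to 0.10.

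As a share of small subunit counts, 6 genes did not overlap between groups, 3 higher and 3 lower in mtch-1(RNAi), against 6.88% and 16.3% of all genes set over the same total. The higher ones were rps-12, rps-16 and rps-21, and the lower ones rps-6, rps-9 and rps-13. For rps-12 the share was 4.14% ± 0.0527 and 4.27% ± 0.0439. For rps-9 it was 4.38% ± 0.0393 and 4.17% ± 0.0726, and for rps-13 it was 2.74% ± 0.138 and 2.502% ± 0.0829 (SD, n = 4). Of these 6, only rps-6, rps-16 and rps-21 passed the edgeR test relative to the total, where 5.83% of all genes rose and 15.9% fell; rps-12 (adjusted p = 0.53), rps-9 (0.297) and rps-13 (0.0975) did not.

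The other 20 genes lay between 0.02 (rps-25) and 0.12 (rps-28) on the log2 scale, with overlapping groups in all but rps-0. rps-0 had 1062, 1074, 1004 and 1072 CPM in EV and 1140.4, 1096, 1129 and 1079.5 CPM in mtch-1(RNAi) (0.08, SE 0.05, adjusted p = 0.254). In all, CPM values did not overlap in 4 genes that were higher (rps-0, rps-11, rps-16 and rps-21) and in rps-6, against 11.7% and 14.2% of all genes. rps-29, the gene with the fewest counts, had the widest standard error of the 31 (0.09), and rps-0 the narrowest (0.05).

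Grouped by place in the subunit or by family, the medians were alike. In known structures of eukaryotic subunits 13 of these proteins belong to the head and 18 to the body. The 13 head genes had a median log2 fold change of 0.08 (range -0.07 to 0.21, 1 rose and 0 fell), and the 18 body genes 0.08 (range -0.30 to 0.25, 2 rose and 1 fell). The 15 genes whose proteins have a bacterial counterpart had a median of 0.08 with 2 that rose, and the 16 without one had 0.08 with 1 that rose and 1 that fell. By unadjusted p under 0.05 there were 2 head and 5 body genes, together 22.6% of the 31 against 35.9% of all genes tested.

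The small subunit mRNAs varied together from sample to sample. After removing group means, EV replicate 2 was above its group mean in 31 of 31 genes and EV replicate 3 below it in 31 of 31. In mtch-1(RNAi), replicate 2 was above in 30 genes and replicate 1 below in 27. Over the 465 pairs of genes the median correlation of these deviations was 0.636, and 94.8% of pairs were positive (8 samples that share depth and scaling, a description only). No such value is given for pairs of other genes, so whether this is particular to small subunit genes was not tested. The within-group SD on the log2 scale was 0.073 at the median small subunit gene, 0.075 at the median of 508 other genes at least as abundant as rps-29, and 0.15 over all genes tested. It was 0.05 once each sample's median small subunit deviation was removed. That step lowered the SD of 29 of 31 genes. Because the median removed comes from these same 31 genes, the lower SD is not separate evidence that they vary together. No such value is given for the 508 other genes. The median deviation of the small subunit genes went with that of the large subunit genes (r = 0.989 over the 8 samples).

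**Figure D5:**
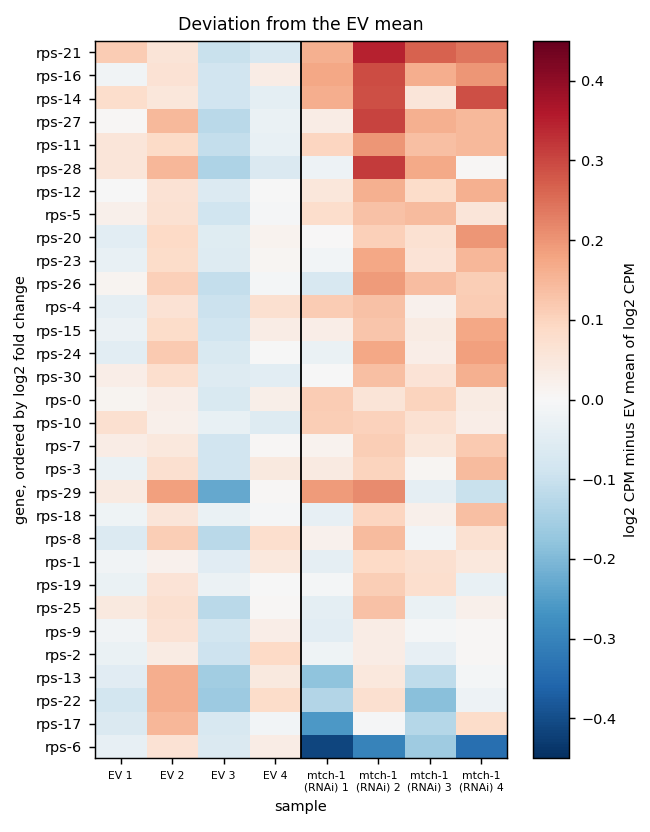
Log2 CPM of each small subunit gene (rows, ordered by fitted change) in each sample (columns) minus its EV mean; red is above and blue below the EV mean, and the black line separates EV from mtch-1(RNAi). EV replicate 2 is above and EV replicate 3 below in all 31 genes, and the bottom row, rps-6, is the darkest blue in mtch-1(RNAi) replicates 1, 2 and 4, whereas in replicate 3 rps-22 is darker.

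Other genes of the pathway were read from lists against the same background of 10.0% and 13.0%. The proteins that complete the small subunit are a ubiquitin fusion from ubl-1 and the scaffold protein RACK1. ubl-1 (573 ± 32.0 and 577 ± 48.0 CPM, 0.01, adjusted p = 0.93) and rack-1 (1069 ± 69.1 and 1149 ± 11.9 CPM, 0.10, adjusted p = 0.181) did not pass. Of 49 tested large subunit genes 4 rose and 1 fell, with a median of 0.05; rpl-11.2 (0.25), rpl-39 (0.33) and rpl-29 (0.23) had the lowest adjusted p among those that rose. With the replicate block 9 of them rose and 3 fell, where 1983 and 2264 of the 13252 genes did. The difference in change between small and large subunit genes was not tested.

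Among genes that make or use ribosomes, calls went in both directions. Of 33 ribosome biogenesis genes 11 rose and 3 fell (median 0.11). lpd-7, the homolog of the yeast pre-rRNA processing factor Nop7, rose, with 207 ± 5.19 CPM in EV and 308 ± 20.8 CPM in mtch-1(RNAi) (0.57, SE 0.05, adjusted p = 1.94e-05). larp-1, whose human homolog binds the terminal oligopyrimidine motif of ribosomal protein mRNAs, fell, with 415 ± 39.2 CPM in EV and 295 ± 25.02 CPM in mtch-1(RNAi) (-0.49, SE 0.07, adjusted p = 0.00065). The nucleolar protein gene dao-5 also fell, by 0.35 on the log2 scale. Of 32 translation initiation factor genes 2 rose and 12 fell (median -0.12). Those with the lowest adjusted p were eif-2Bepsilon (-0.51), ife-5 (0.55) and eif-2gamma (-0.37). eif-2gamma encodes a subunit of the factor that brings initiator tRNA to the small subunit. Of 13 elongation and termination factor genes 2 rose and 5 fell (median -0.01). The 2 that rose were abcf-3 (0.30) and efk-1 (0.21), and eef-1A.1 was among those that fell (-0.29). In the list of TOR and S6 kinase signalling, 1 of 17 genes rose and 4 fell (median -0.0049). Fitted values in that list ran from -0.30 to 0.59, with raga-1 at -0.30 beside let-363.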

How the data were processed

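The submitters' processing notes name HISAT2 (2.0.5), featureCounts (1.5.0-p3) and DESeq2, and the build WBcel235, without settings. The authors deposited whole-number read counts per gene, a size-factor scaled signal, FPKM values, gene lengths in bases (another unit), and log2 fold changes with p-values. The deposited counts entered the tests, while the signal and FPKM served to check units and levels. Symbols and coordinates came from Ensembl release 115 (20596 of 20871 genes matched).

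The quasi-likelihood F test of edgeR (4.0.16, R 4.3.3) was run with TMM, its default expression filter and no block, adjusted by Benjamini-Hochberg over 13252 genes at a threshold of 0.05. limma (3.58.1) and DESeq2 (1.42.0) gave alternatives. The fits were also run on simulated counts that held no replicate effect, unlike the data, and no result here rests on that run. Members and lists were chosen with earlier results of these data known.

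Groups and replicate numbers came from the titles. Whether a group's samples came from separate cultures is not stated in the labels, and the p-values then reflect the spread among these samples, which may be technical. Same-numbered samples deviated together (correlations 0.342, 0.205, 0.242 and 0.185, all over 0.1), which pairs them. The main test, its standard errors and its intervals did not use this pairing. With the replicate block 15.0% of all genes rose and 17.1% fell. There 12 ribosome biogenesis genes rose and 3 fell, and 4 initiation factor genes rose and 15 fell. Of the elongation and termination factor genes 3 rose and 5 fell, and of the TOR list 1 rose and 5 fell. Samples within a group differed beyond sampling noise (chi-square per degree of freedom 6.28 to 13.99). By the naming rule, per-sample values are given for the 3 highest and 3 lowest genes, the called genes and those below 0; rps-11, rps-27, fib-1, rsks-1 and ubl-1 were singled out after their values were seen.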

Additional observations from a re-analysis of the deposited data

Results flagged for a closer look

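Dixon's test was run in each group for the 31 genes, the summed share, the ratio to large subunit counts and mtch-1, 68 groups in all, and 1 passed, against 3.4 that chance gives. rps-0 in EV replicate 3 stood at 1004 CPM, apart from the 1062 to 1074 CPM of the other EV samples.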

How the results depend on the processing

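The number of small subunit genes that rose, 3 in the main test, was 7 with a mean of at least 5 CPM as filter (which also changes the TMM scaling), 5 with the replicate block, 2 to 5 when 1 sample was left out (where 7.52% to 9.41% of all genes rose), 1 without replicate 1 of both groups and 16 per total count; the last 2 alternatives were chosen after seeing the data. Over all genes, 872 rose without replicate 1 of both groups, and per total count 2040 rose and 1003 fell against 1325 and 1728. Per total count the median of the 31 genes was 0.15 and that of all genes tested 0.09. In the main test these medians were 0.08 and 0.01. Relative to the small subunit total 2 rose and 1 fell. The number that fell was 1 in every alternative run. The replicate block changed no other call of a small subunit gene. Leaving out 1 sample moved the median between 0.06 and 0.12, the ratio of shares between 1.09 and 1.12 and the ratio of highest to lowest level in EV between 5.25 and 5.52; with the coding length that ratio was 3.97.

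Signs turned in 10 genes, none of them called where it turned. For rps-2 and rps-9 the log2 fold change was 0.014 and 0.015 with upper-quartile scaling, 0.067 and 0.068 per total count, 0.00073 and 0.0019 with no count filter, and 0.031 and 0.032 with the 5 CPM filter. Leaving out 1 sample gave ranges of -0.038 to 0.026 for rps-2, -0.033 to 0.027 for rps-9, -0.12 to 0.00081 for rps-13, -0.021 to 0.053 for rps-25 and -0.0072 to 0.14 for rps-29. rps-9 was 0.0042 without replicate 1 of both groups. Per total count rps-13 was 0.0074 and rps-22 0.0035. rps-25 was -0.013 with the length trend removed. Relative to the small subunit total rps-1 was -0.025, rps-8 -0.014, rps-18 -0.013, rps-19 -0.031 and rps-25 -0.048. The cause of these moves was not tested. With at least 4681 counts per gene and sample, the spread between samples exceeds counting error here.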

Other observations

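In a description chosen after seeing the data, most other abundant genes were lower after mtch-1 knockdown. Of 508 other tested genes with a mean CPM at least that of the lowest small subunit gene, 25 rose and 260 fell, 105 had a log2 fold change above 0, and the median was -0.17. The large subunit genes, taken at any abundance, did not follow that direction, with 33 of 49 tested above 0 and a median of 0.05. Not all of these 49 genes were abundant enough to be among the 508. With those that were left out, 23 of 465 genes rose and 259 fell, with a median of -0.19, beside a median of 0.08 for the 31 small subunit genes. No test of these differences was made.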
